A study of Rattus norvegicus with 20 samples.

Results

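The genes described here are 10 genes of fatty acid synthesis in rat liver: the enzymes Acly, Acaca and Fasn, the lipogenic regulator Thrsp, the elongases Elovl6 and Elovl5, the desaturases Scd, Fads1 and Fads2, and the transcription factor Srebf1. They were chosen by function, and Scd was set against Fasn and Elovl6 because in this same experiment Scd was lower at every dose and the other pair higher at the 2 highest doses. All 10 were among the 14217 genes measured, and 17 of the 31042 probe sets analysed were annotated to them. Where a gene had several probe sets, the brightest on average stands for it; Scd, Acly, Fads1 and Fads2 had 1 each.

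Liver RNA came from male Harlan Sprague-Dawley rats that were gavaged once a day for 4 days with triphenyl phosphate, an organophosphate flame retardant and plasticiser, dissolved in corn oil. The vehicle group, given corn oil alone (0 mg/kg), had 5 arrays, and the groups given 55, 110, 220, 440 and 881 mg/kg had 3 arrays each. Expression was measured on Affymetrix arrays, 1 per sample and 20 in all, and the deposited values are log2 expression. The labels do not tie arrays to separate animals and give no age, so the p-values below rest on the spread from sample to sample, part of which may be technical.

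De novo fatty acid synthesis turns citrate into acetyl-CoA (Acly), acetyl-CoA into malonyl-CoA (Acaca) and malonyl-CoA into palmitate (Fasn), after which Elovl6 lengthens palmitate to stearate and Scd, stearoyl-CoA desaturase, puts in the double bond that makes oleate. Elovl5, Fads1 and Fads2 serve mainly the polyunsaturated fatty acids. In liver many of these genes are known targets of SREBP-1c, made from Srebf1, and of the nuclear receptor LXR and the sugar-sensing factor ChREBP, and as a rule they rise on refeeding and fall on fasting together.

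The bases before the transcription start are shown for 4 of the genes that the results turn on. The group means of Scd and Elovl5 were lower and that of Thrsp higher than in vehicle livers at every dose, Acly was higher at 440 and 881 mg/kg, and within dose groups Scd and Thrsp varied together. The sequences are RefSeq's (build GRCr8), the 250 bases before the start on the gene's own strand, 5′ to 3′. They lie at chr1:253231732-253231981 (minus strand), chr1:161138965-161139214 (minus), chr10:85963632-85963881 (minus) and chr8:87670914-87671163 (plus). Capitals mark CCAAT or its complement ATTGG, and CACGTG.
Scd: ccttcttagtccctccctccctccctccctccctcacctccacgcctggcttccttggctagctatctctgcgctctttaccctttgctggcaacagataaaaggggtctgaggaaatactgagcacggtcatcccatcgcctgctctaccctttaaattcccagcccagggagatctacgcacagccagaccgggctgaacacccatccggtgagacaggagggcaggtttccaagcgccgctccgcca
Thrsp: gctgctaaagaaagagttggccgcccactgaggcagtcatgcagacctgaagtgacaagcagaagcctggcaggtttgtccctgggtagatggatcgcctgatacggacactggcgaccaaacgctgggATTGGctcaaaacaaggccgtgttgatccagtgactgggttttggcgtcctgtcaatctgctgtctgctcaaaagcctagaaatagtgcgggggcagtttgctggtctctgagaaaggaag
Acly: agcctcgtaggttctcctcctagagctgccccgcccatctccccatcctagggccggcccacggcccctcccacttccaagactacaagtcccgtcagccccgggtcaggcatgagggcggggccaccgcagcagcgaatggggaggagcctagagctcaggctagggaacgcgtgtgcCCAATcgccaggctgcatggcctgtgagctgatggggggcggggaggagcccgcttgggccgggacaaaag
Elovl5: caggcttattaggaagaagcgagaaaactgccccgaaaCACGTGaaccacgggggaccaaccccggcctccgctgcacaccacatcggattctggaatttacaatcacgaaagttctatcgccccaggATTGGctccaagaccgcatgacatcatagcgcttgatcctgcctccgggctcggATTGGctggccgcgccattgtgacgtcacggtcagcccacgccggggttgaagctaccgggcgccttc

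RefSeq's table held a window for 7 of the 10 genes, 8 windows in all because Srebf1 has a pair of starts. Acaca, Fasn and Elovl6 were without one. Both strands were searched for CCAAT, the letters bound by NF-Y, for CACGTG, an E-box, for TCACNCCAC, the sterol element's letters, and for GGGCGG, a GC box. CCAAT stood in 6 of the 8 windows, those of Acly, Elovl5, Fads1, Thrsp and both of Srebf1, against 34.0% of 33469 windows of the same length. Neither Scd's window nor Fads2's held it, nor CACGTG. Counted from the start, it begins at -121 in Thrsp, -71 in Acly, and -122 and -68 in Elovl5. CACGTG stood in the Elovl5 window alone of the 8, at -212, against 5.59% of all windows. GGGCGG stood in 6 windows, against 30.5%. TCACNCCAC stood in 0 of the 8 and in 0.974% of all. These are matches of letters in short windows and nothing more.

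Array medians lay between 6.31 and 6.39. The array of 881 mg/kg replicate 2 stood apart: its 3′ minus 5′ difference of the Gapdh control probe sets, a sign of RNA breakdown, was 5.24 on the log2 scale against 0.81 to 1.64 on the other 19 arrays, and its median correlation with other arrays was 0.980 against 0.990 to 0.994. The 881 mg/kg results of the 10 genes are therefore also given without it, and those of the lists by their counts. Without it 7.62% of all genes were called higher at 881 mg/kg and 3.93% lower, against 12.7% and 6.73% with it. The mean level of 9 hepatocyte markers was 14.49 to 14.61 at 881 mg/kg and 14.59 to 14.62 in vehicle livers, with 1 of the 9 called higher and 2 lower, while 7 of 8 measured Kupffer cell and macrophage markers, 5 of 9 stellate cell and fibroblast markers and 3 of 5 endothelial markers fell at 881 mg/kg. Without replicate 2 these last 3 counts were 4, 2 and 1. The part of these shifts in the results below was not tested. In such whole-tissue samples fewer cells of a type and less RNA per cell cannot be told apart. Of the adipocyte markers, whose tissue also makes fatty acids, Adipoq and Lep stood at 4.98 in both groups, near the lower end of the scale, and the mean of the 7 measured was 6.64 to 6.80 at 881 mg/kg and 6.64 to 6.90 in vehicle livers. Of the 7, Pparg rose at 881 mg/kg (0.41, adjusted p = 0.0257), and 0 were called without replicate 2.

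**Figure D1:**
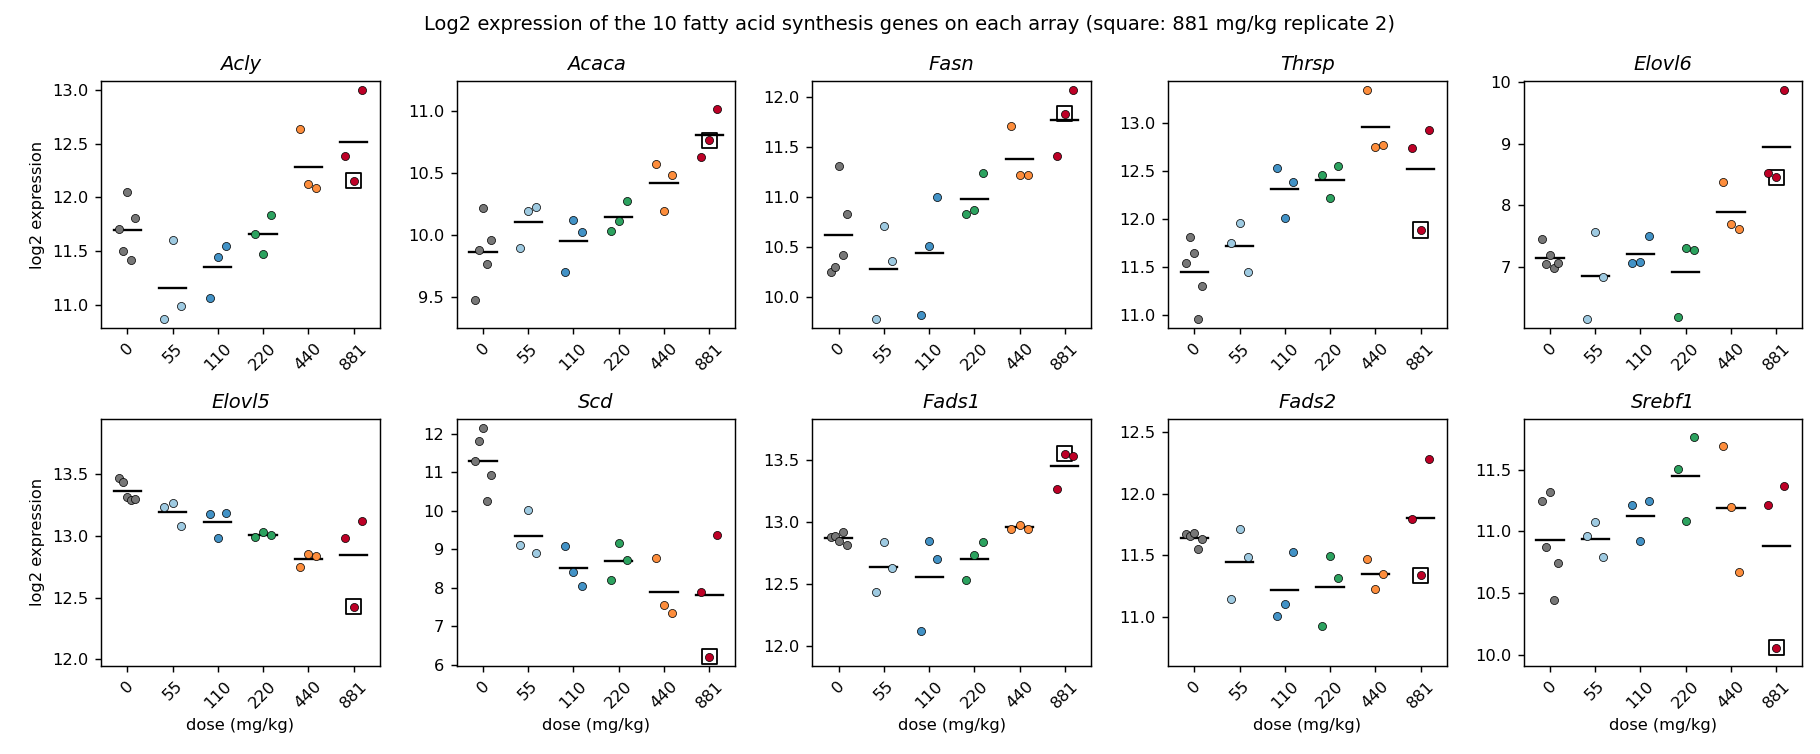
Log2 expression (vertical axis, a range of its own in each panel) of the 10 genes on every array against the dose in mg/kg, with 0 the vehicle; points are arrays, bars are group means and squares mark 881 mg/kg replicate 2. Scd lies below all vehicle arrays at every dose, while Fasn, Acly, Acaca and Elovl6 lie above them at 881 mg/kg.

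Scd was lower than in vehicle livers on every array of every dose, and already so at the lowest. Its values were 11.29, 11.82, 12.15, 10.24 and 10.92 (log2) on the vehicle arrays, 9.12, 10.03 and 8.91 at 55 mg/kg and 9.08, 8.40 and 8.04 at 110 mg/kg. At the higher doses they were 8.19, 9.16 and 8.73 at 220 mg/kg, 8.76, 7.54 and 7.35 at 440 mg/kg and 7.88, 6.21 and 9.36 at 881 mg/kg. The highest dosed array, 10.03, lay under the lowest vehicle array, 10.24. Against vehicle the log2 difference was -1.93 at 55 mg/kg, -2.78 at 110 mg/kg, -2.59 at 220 mg/kg, -3.40 at 440 mg/kg and -3.47 at 881 mg/kg (standard error 0.54 each). These correspond to levels 3.82-fold, 6.87-fold, 6.03-fold, 10.5-fold and 11.1-fold lower, given as a description because the direction chose the gene. Ordered by mean, vehicle and 55 mg/kg were the neighbours whose arrays did not overlap, and the dosed groups each overlapped the next. The difference between 881 and 440 mg/kg was -0.07 ± 0.60 (SE). Scd also had the widest spread of the 10 genes at 881 mg/kg (SD 1.57, n = 3), and without replicate 2, its lowest array, the 881 mg/kg difference was -2.67. Its paralog Scd2, a desaturase found mainly outside liver, averaged 6.66 ± 0.15 at 881 mg/kg (SD, n = 3) and 6.86 ± 0.49 in vehicle livers (n = 5), a difference of -0.20 ± 0.28 (SE; adjusted p = 0.664). Whether either probe set takes up RNA of the other gene was not tested.

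Fasn, the multifunctional enzyme that builds palmitate, was higher than in vehicle livers on every 881 mg/kg array. Its values were 10.25, 10.31, 11.31, 10.42 and 10.83 on the vehicle arrays, 9.78, 10.71 and 10.36 at 55 mg/kg and 9.82, 10.51 and 11.00 at 110 mg/kg. They were 10.83, 10.87 and 11.24 at 220 mg/kg, 11.71, 11.22 and 11.22 at 440 mg/kg and 11.41, 11.83 and 12.07 at 881 mg/kg. All 881 mg/kg arrays lay above all vehicle arrays, whereas at every lower dose the ranges overlapped. Against vehicle the log2 difference was -0.34, -0.18, 0.36, 0.76 and 1.15 from the lowest to the highest dose (standard error 0.27 each), the last a level 2.22-fold higher. A second Fasn probe set gave 0.94 at 440 mg/kg and 1.17 at 881 mg/kg (standard error 0.31 each). Neighbouring dose groups overlapped throughout the order of Fasn levels. Without 881 mg/kg replicate 2 the difference at that dose was 1.12.

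**Figure D2:**
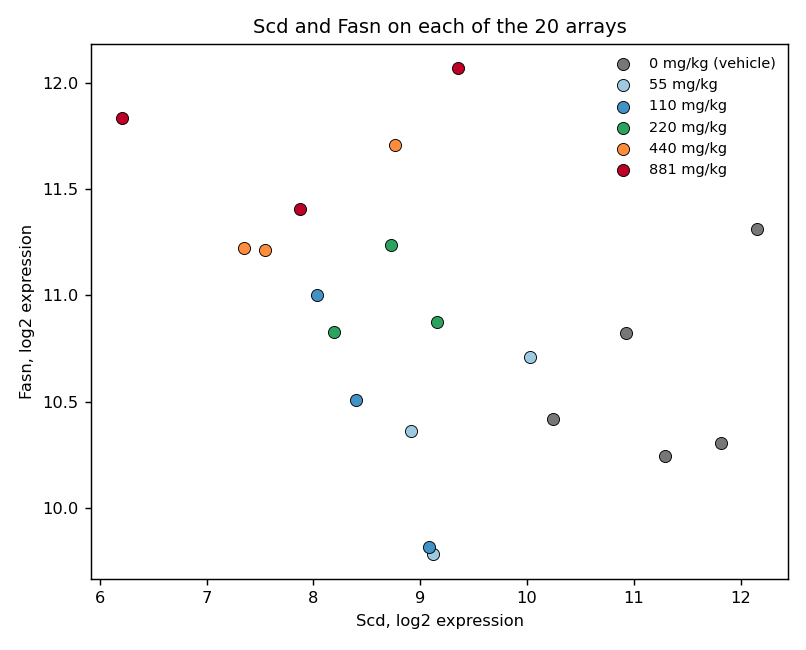
Log2 expression of Fasn (vertical axis) against that of Scd (horizontal axis) on the 20 arrays, coloured by dose. Scd separates the vehicle arrays, at 10.24 and above, from all dosed arrays, at 10.03 and below, and Fasn separates the 881 mg/kg arrays, at 11.41 and above, from the vehicle arrays.

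Acly and Acaca, the steps before Fasn, rose at 881 mg/kg. Acly, ATP citrate lyase, had 12.39, 12.16 and 12.99 at 881 mg/kg and 12.63, 12.12 and 12.09 at 440 mg/kg, against 11.71, 11.50, 12.05, 11.42 and 11.81 in vehicle livers. Both dosed groups lay above all vehicle arrays. At 881 mg/kg the log2 change was 0.81 ± 0.20 (SE; adjusted p = 0.00809), a level 1.76-fold higher, and at 440 mg/kg it was 0.58 ± 0.20 (adjusted p = 0.0711). Without 881 mg/kg replicate 3, its highest array, Acly's change was 0.57 (adjusted p = 0.0575), and without replicate 2 it was 0.99 (adjusted p = 0.00604). At 55 mg/kg Acly stood at 10.87, 11.60 and 10.99, a change of -0.54 ± 0.20 that was not called (adjusted p = 0.171), and at 110 and 220 mg/kg the changes were -0.35 and -0.04. Adjusted p-values are limma's over all 14217 genes, and a gene was called, and is said to have risen or fallen, where this was under 0.05.

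Acaca, acetyl-CoA carboxylase, which makes malonyl-CoA and commits carbon to synthesis, had 10.63, 10.77 and 11.02 at 881 mg/kg and 10.57, 10.19 and 10.49 at 440 mg/kg, against 9.47, 9.88, 10.21, 9.77 and 9.96 in vehicle livers. The 881 mg/kg arrays lay above every other array of the series, and the lowest 440 mg/kg array was within the vehicle range. The rise was 0.95 ± 0.14 at 881 mg/kg (adjusted p = 0.000201), 1.93-fold, and 0.56 ± 0.14 at 440 mg/kg (adjusted p = 0.0171). At 55, 110 and 220 mg/kg the changes were 0.25, 0.09 and 0.28, none of them called. The call at 440 mg/kg was lost without replicate 1 (0.48, adjusted p = 0.0868) or replicate 3 (0.52, adjusted p = 0.075) of that dose. Acaca's second probe set averaged 5.49 over all arrays, near the lower end of the scale, and differed by -0.06 ± 0.14 at 881 mg/kg. With the mean of both in place of the brighter one the change was 0.45 (adjusted p = 0.0158), and without 881 mg/kg replicate 2 it was 0.97 on the brighter one (adjusted p = 0.00111). The isoform Acacb, the carboxylase tied to the control of fatty acid oxidation, averaged 5.12 ± 0.21 at 881 mg/kg and 5.10 ± 0.19 in vehicle livers (SD, n = 3 and 5), a change of 0.02 ± 0.11 (SE; adjusted p = 0.943) that took either sign when single arrays were left out.

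Thrsp, known as Spot 14, is a small nuclear protein that goes with lipogenesis and answers to thyroid hormone and carbohydrate. It rose at 440 and 881 mg/kg. At 110 and 220 mg/kg it rose in the main model of dose groups alone, but was not called when the model also held the replicate number. With another limma prior it was also not called at 110 mg/kg. It had 11.54, 11.81, 11.65, 10.96 and 11.30 on the vehicle arrays, 11.75, 11.97 and 11.45 at 55 mg/kg and 12.53, 12.01 and 12.39 at 110 mg/kg. It had 12.46, 12.22 and 12.55 at 220 mg/kg, 13.35, 12.75 and 12.78 at 440 mg/kg and 12.74, 11.89 and 12.93 at 881 mg/kg. From 110 mg/kg on, every dosed array lay above every vehicle array, and 440 mg/kg held the highest mean. The changes were 0.86 at 110 mg/kg (adjusted p = 0.0362), 0.96 at 220 mg/kg (0.0203), 1.51 at 440 mg/kg (0.000236) and 1.07 at 881 mg/kg (0.00247), with a standard error of 0.22 each. At 55 mg/kg the change was 0.27 (adjusted p = 0.62). Thrsp was not called at 110 mg/kg without vehicle replicate 4 or 5 or without replicate 1 or 3 of that dose (0.74 to 0.82, adjusted p = 0.0674 to 0.16). At 220 mg/kg it was not called without vehicle replicate 4 or without replicate 1 or 3 of that dose (0.84 to 0.93, adjusted p = 0.0523 to 0.0933). On 881 mg/kg replicate 2, the array with the high Gapdh difference, the other Thrsp probe sets read 9.41 and 8.70, against 12.60 and 12.76, and 11.19 and 11.50, on replicates 1 and 3. With the mean of the 3 probe sets the changes were 0.89 at 110 mg/kg (adjusted p = 0.254), 0.97 at 220 mg/kg (adjusted p = 0.213) and 0.78 at 881 mg/kg (adjusted p = 0.171), and without replicate 2 on the brightest one it was 1.39 (adjusted p = 0.00033).

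At 440 and 881 mg/kg the elongase Elovl6 was higher and Elovl5 lower than in vehicle livers. Elovl6, which lengthens palmitate, had 8.53, 8.46 and 9.87 at 881 mg/kg and 8.38, 7.70 and 7.61 at 440 mg/kg, against 7.45, 7.05, 7.20, 6.98 and 7.07 in vehicle livers. At both doses all arrays were above the vehicle range, and the 881 mg/kg arrays were above those of 440 mg/kg. The log2 difference was 1.80 ± 0.33 at 881 mg/kg (SE), a level 3.48-fold higher, and 0.75 ± 0.33 at 440 mg/kg, given with no test because the direction chose the gene. At 55, 110 and 220 mg/kg the differences were -0.29, 0.07 and -0.23. Single arrays at 55 and 220 mg/kg, with 6.16 and 6.19, were the lowest of the series. Without 881 mg/kg replicate 2 the difference at that dose was 2.05. The second Elovl6 probe set gave 1.67 ± 0.31 at 881 mg/kg and 0.86 ± 0.31 at 440 mg/kg.

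Elovl5, which lengthens polyunsaturated fatty acids, had 13.47, 13.44, 13.32, 13.29 and 13.30 in vehicle livers, 13.24, 13.27 and 13.08 at 55 mg/kg and 13.17, 12.98 and 13.18 at 110 mg/kg. It had 12.99, 13.03 and 13.00 at 220 mg/kg, 12.75, 12.85 and 12.84 at 440 mg/kg and 12.98, 12.43 and 13.12 at 881 mg/kg. Every dosed array lay below every vehicle array, so that Elovl5 and Scd were the 2 of the 10 genes lower at every dose without overlap. Elovl5 fell by 0.55 at 440 mg/kg (adjusted p = 0.00346) and by 0.52 at 881 mg/kg (adjusted p = 0.00325), with a standard error of 0.11 each. The changes of -0.17, -0.25 and -0.35 at 55, 110 and 220 mg/kg were not called (adjusted p = 0.507, 0.262 and 0.0949). Without 881 mg/kg replicate 2, the lowest array, the change at that dose was -0.31 (adjusted p = 0.0181). The second Elovl5 probe set changed by -1.02 ± 0.33 at 881 mg/kg and stood at 5.52 on replicate 2, against 7.42 and 7.45 on replicates 1 and 3.

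**Figure D3:**
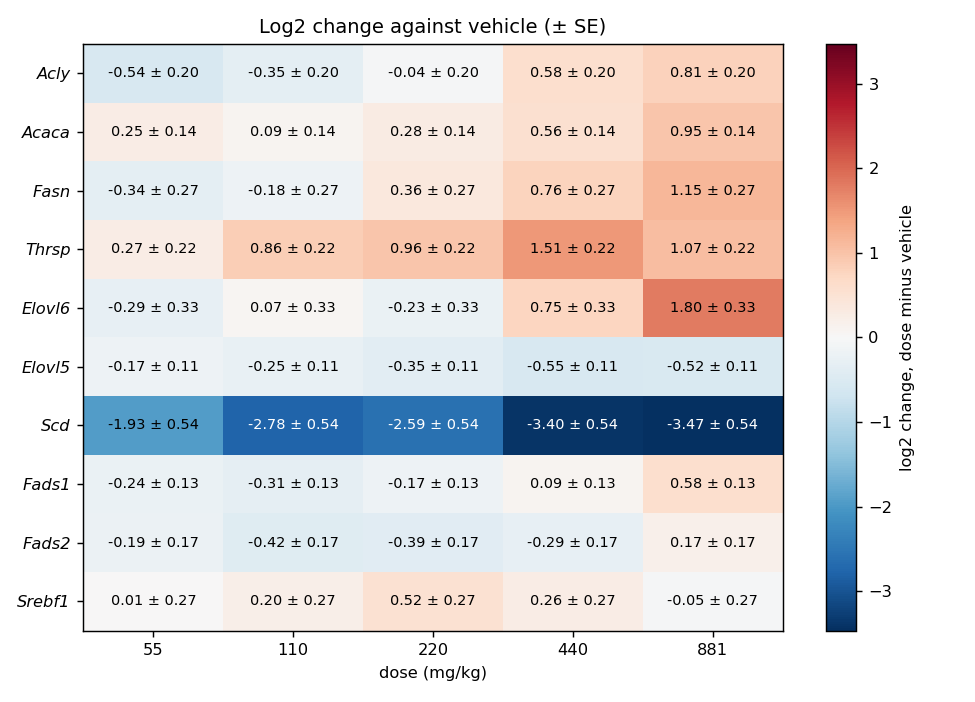
Log2 change against vehicle with its standard error for the 10 genes (rows) at 55 to 881 mg/kg (columns); red is higher and blue lower than vehicle. Scd is lower at each dose (-1.93 to -3.47), whereas Fasn, Elovl6, Acly and Acaca are highest at 881 mg/kg (0.81 to 1.80).

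Of the front-end desaturases of polyunsaturated fatty acids, Fads1 rose at 881 mg/kg and Fads2 was not called. Fads1, the delta-5 desaturase, had 13.27, 13.56 and 13.53 at 881 mg/kg and 12.95, 12.98 and 12.94 at 440 mg/kg, against 12.88, 12.89, 12.84, 12.92 and 12.82 in vehicle livers. It rose at 881 mg/kg by 0.58 ± 0.13 (SE; adjusted p = 0.0037), 1.5-fold, with all arrays above those of 440 mg/kg, and by 0.53 without replicate 2 (adjusted p = 0.0242). Below that dose nothing was called: the changes were -0.24, -0.31, -0.17 and 0.09 from 55 to 440 mg/kg. At 440 mg/kg the arrays lay just above vehicle, the lowest at 12.94 and the highest vehicle array at 12.92.

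Fads2, the delta-6 desaturase, was not called at any dose. Its vehicle arrays were tightly grouped, from 11.55 to 11.68, and all arrays at 110 mg/kg (11.01 to 11.53), 220 mg/kg (10.93 to 11.49) and 440 mg/kg (11.23 to 11.47) lay below them. The changes there were -0.42, -0.39 and -0.29 with a standard error of 0.17 each (adjusted p = 0.214, 0.254 and 0.317). At 881 mg/kg its arrays read 11.79, 11.34 and 12.28, on both sides of vehicle, a change of 0.17 ± 0.17 (adjusted p = 0.537) that was -0.07 without replicate 3 and 0.40 without replicate 2 (adjusted p = 0.136).

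Srebf1, the gene of SREBP-1, was not called at any dose either. Its arrays read 11.21, 10.06 and 11.37 at 881 mg/kg, against 11.25, 10.88, 11.32, 10.45 and 10.75 in vehicle livers, and the groups overlapped at each dose. The changes were 0.01, 0.20, 0.52, 0.26 and -0.05 from 55 to 881 mg/kg, with a standard error of 0.27 each and adjusted p-values of 0.344 to 0.989. At 881 mg/kg the low array was replicate 2, on which the second Srebf1 probe set read 6.98, against 9.14 and 9.28 on replicates 1 and 3; without it the change was 0.36 (adjusted p = 0.366). The spread of Srebf1 limits what these arrays can show, and its protein is switched on by cleavage, which arrays do not measure.

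Counted over the 7 genes other than Scd, Fasn and Elovl6, 0 were called at 55 mg/kg, 1 rose at 110 mg/kg and 1 at 220 mg/kg. By limma's test 1 of the 7 had an unadjusted p under 0.05 at 55 mg/kg, given without the share of all genes under it. The gene called at 110 and 220 mg/kg was Thrsp. At 440 mg/kg 2 rose (Acaca and Thrsp) and 1 fell (Elovl5). With the mean of a gene's probe sets 1 of these 3 was called, as Acaca had 0.36 (adjusted p = 0.0691) and Elovl5 -0.60 (adjusted p = 0.0791). At 110 and 220 mg/kg 0 were called with that mean, and 0 also in a model that held the replicate number. In the main fit 4 rose at 881 mg/kg (Acly, Acaca, Thrsp and Fads1), 1 fell (Elovl5) and 2 were not called (Fads2 and Srebf1). Of all genes, 2.81% were called at 55 mg/kg (1.93% higher, 0.879% lower), 3.61% at 110 mg/kg (2.36% and 1.24%) and 3.43% at 220 mg/kg (2.25% and 1.18%). At 440 mg/kg it was 11.0% (6.76% and 4.28%) and at 881 mg/kg 19.5% (12.7% and 6.73%).

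The arrays of all 10 genes were also read for overlap with the vehicle range. At 55 mg/kg 0 genes had all arrays above it and 2 (Scd and Elovl5) all below, beside 9.33% and 4.26% of all genes. At 110 mg/kg it was 1 above and 3 below, beside 7.62% and 5.28%, and at 220 mg/kg again 1 and 3, beside 7.95% and 5.02%. At these doses Thrsp was above and Fads2 joined Scd and Elovl5 below. At 440 mg/kg 4 were above and 3 below, beside 12.8% and 8.40%, and at 881 mg/kg 6 above and 2 below, beside 13.4% and 8.31%. Since the genes were picked with such results known, these counts describe them and are no test of the list.

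Between the 2 highest doses, whose difference uses no vehicle array, limma called 0 of the 7 genes, and 3 had an unadjusted p under 0.05. The share of all genes at that unadjusted p is not given here, so the count of 3 is a description only. Of all genes 0.260% were called, 0.134% higher and 0.127% lower at 881 mg/kg. For Fads1, 881 minus 440 mg/kg was 0.50 ± 0.14 (SE; adjusted p = 0.161), the closest to the threshold, and for Acaca 0.39 ± 0.16 (adjusted p = 0.395). Elovl6 differed by 1.05 ± 0.37. Thrsp differed by -0.44 ± 0.25 (adjusted p = 0.571), with replicate 2 the lowest of its 881 mg/kg arrays. Elovl6, Acaca and Fads1 had all 881 mg/kg arrays above those of 440 mg/kg and no gene of the 10 had all below, beside 7.59% and 5.56% of all genes.

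Lists set up by function held 46 other measured genes of the pathway. At 881 mg/kg 9 rose, 3 fell and 34 were not called. That is 19.6% higher and 6.52% lower, against 12.7% and 6.73% of all genes, and the median change was 0.13 against 0.00 over all genes. At 440 mg/kg 4 rose and 2 fell, beside 6.76% and 4.28% of all genes. At 220 mg/kg 1 rose and 2 fell, beside 2.25% and 1.18%, and at 110 mg/kg 0 rose and 1 fell, beside 2.36% and 1.24%. At 55 mg/kg limma called 0, beside 2.81% of all genes, with 6 at an unadjusted p under 0.05. Between 881 and 440 mg/kg limma called 0, with 7 at an unadjusted p under 0.05. Shares of all genes at an unadjusted p under 0.05 are not given here, so these unadjusted counts are descriptions only. The pathway count at 881 mg/kg was 5 rose and 3 fell without replicate 2 of that dose, beside 7.62% and 3.93% of all genes. Without replicate 3 it was again 5 rose and 3 fell, while 1879 rose and 846 fell of all 14217 genes. At 220 mg/kg 0 were called without replicate 1 or without replicate 3 of that dose, and 1 without vehicle replicate 4. Shares this near to those of all genes do not set the pathway apart.

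Of the 8 genes that supply acetyl-CoA and NADPH, 3 rose at 881 mg/kg and 0 fell, beside 12.7% and 6.73% of all genes, and 2 rose without replicate 2. Me1, malic enzyme, which makes NADPH for synthesis, read 10.54, 10.47 and 11.12 at 881 mg/kg, against 9.21, 8.78, 8.94, 8.75 and 8.85 in vehicle livers. All of its dosed arrays at 440 and 881 mg/kg lay above vehicle, and it rose by 1.12 ± 0.24 at 440 mg/kg (adjusted p = 0.00577) and by 1.81 ± 0.24 at 881 mg/kg (adjusted p = 6.89e-05), 3.5-fold, or 1.93 without replicate 2 (adjusted p = 0.000259). Acss2, which makes acetyl-CoA from acetate, rose by 0.66 ± 0.19 (adjusted p = 0.0218) and Idh1, the cytosolic isocitrate dehydrogenase, by 0.34 ± 0.07 (adjusted p = 0.00219). Of the 8 elongation partners none was called. Of the 7 genes of malonyl-CoA and mitochondrial synthesis, Oxsm, the mitochondrial ketoacyl synthase, rose by 0.40 ± 0.10 (adjusted p = 0.0104). Of the 5 desaturation partners, Cyb5b, the cytochrome b5 of the outer mitochondrial membrane, rose by 0.39 ± 0.11 (adjusted p = 0.0191). With replicate 2 left out, 0 of the elongation partners, 0 of the malonyl-CoA list and 2 of the desaturation partners rose, by limma's adjusted p. Single arrays decided 3 of these calls. Acss2 was not called without vehicle replicate 2 (0.57, adjusted p = 0.0539), 881 mg/kg replicate 2 (0.67, adjusted p = 0.0636) or replicate 3 (0.59, adjusted p = 0.0746). Oxsm was not called without 881 mg/kg replicate 2 (0.28, adjusted p = 0.0916), nor Cyb5b without replicate 3 (0.33, adjusted p = 0.0766) or with the mean of its probe sets (0.28, adjusted p = 0.0714).

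Of the 5 acyl-CoA ligases, which activate fatty acids, 1 rose, 1 fell and 3 were not called at 881 mg/kg. Of all genes 12.7% rose and 6.73% fell at that dose. Without replicate 2 the ligase counts were the same, beside 7.62% and 3.93% of all genes. Acsl5 read 11.19, 10.82 and 11.43 at 881 mg/kg, against 11.80, 11.85, 11.99, 12.00 and 11.89 in vehicle livers. Its arrays lay below vehicle at every dose, though at 55 mg/kg the ranges all but touched (highest 11.7953, lowest vehicle array 11.7959). It fell by 0.56 at 220 mg/kg (adjusted p = 0.029), by 0.77 at 440 mg/kg (0.00127) and by 0.76 at 881 mg/kg (0.000871), with a standard error of 0.14 each. The call of Acsl5 at 220 mg/kg was lost without replicate 1 or without replicate 3 of that dose. Acsl4, which prefers arachidonate, rose by 0.33 ± 0.07 at 881 mg/kg (adjusted p = 0.00281).

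Of the 13 genes of transcriptional control, 3 rose and 2 fell at 881 mg/kg, beside 12.7% and 6.73% of all genes, and 0 rose and 2 fell without replicate 2. Insig2, one of a pair of membrane proteins that hold the SREBP precursors in the endoplasmic reticulum, read 10.68, 11.21 and 11.23 at 881 mg/kg, against 12.09, 12.02, 12.08, 11.84 and 11.90 in vehicle livers. Its arrays lay below vehicle at every dose, and it fell by 0.92 at 110 mg/kg (adjusted p = 0.000979), 0.63 at 220 mg/kg (0.0185), 1.46 at 440 mg/kg (2.78e-06) and 0.95 at 881 mg/kg (0.000157), with a standard error of 0.14 each. At 220 mg/kg the call of Insig2 was lost without replicate 1 or without replicate 3 of that dose. Insig1, the other member of the pair and itself an SREBP target, rose by 1.56 ± 0.30 at 440 mg/kg (adjusted p = 0.00242) and changed by 0.74 ± 0.30 at 881 mg/kg (adjusted p = 0.0927). Insig1 averaged 11.57 ± 0.16 at 881 mg/kg and 10.83 ± 0.52 in vehicle livers (SD, n = 3 and 5), and without vehicle replicate 1 the change at 881 mg/kg was 0.91 (adjusted p = 0.0456). Mid1ip1, the partner of Thrsp on the malonyl-CoA list, is named after its values were seen. It rose by 1.1 ± 0.28 at 220 mg/kg (adjusted p = 0.036) and by 1.12 ± 0.28 at 440 mg/kg (adjusted p = 0.0144), and changed by 0.46 ± 0.28 at 881 mg/kg (adjusted p = 0.272). The call of Mid1ip1 at 220 mg/kg was lost without vehicle replicate 2, 4 or 5 or without replicate 1 or 3 of that dose. It was also lost with another limma prior and with the replicate number in the model.

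Srebf2, the SREBP of sterol synthesis, rose by 0.39 ± 0.10 at 881 mg/kg (adjusted p = 0.01), Mbtps2, a protease that frees SREBPs, by 0.31 ± 0.10 (adjusted p = 0.0408) and Nr1h3, which encodes LXR alpha, by 0.29 ± 0.10 (adjusted p = 0.0383). Ppargc1b, an SREBP coactivator, fell by 0.46 ± 0.14 (adjusted p = 0.0304). For each of these 4 genes the arrays of the 881 mg/kg and vehicle groups overlapped. Without 881 mg/kg replicate 2 the change was 0.30 for Srebf2 (adjusted p = 0.0783), 0.21 for Mbtps2 (0.245) and 0.22 for Nr1h3 (0.199). Mbtps2 was also not called without vehicle replicate 1, 4 or 5 or 881 mg/kg replicate 3 (0.25 to 0.33, adjusted p = 0.0636 to 0.0945), nor Nr1h3 without vehicle replicate 1 or 2 or 881 mg/kg replicate 3 (0.25 to 0.29, adjusted p = 0.0743 to 0.086). Ppargc1b was not called without vehicle replicate 3 (-0.34, adjusted p = 0.0607) or 881 mg/kg replicate 1 (-0.32, adjusted p = 0.159), nor Srebf2 with the mean of its probe sets (0.18, adjusted p = 0.0538). In a fit of the 881 mg/kg and vehicle arrays alone, Mbtps2, Nr1h3 and Ppargc1b were not called either (adjusted p = 0.115, 0.092 and 0.102). Scap, the escort of SREBPs, changed by 0.04 ± 0.09 (adjusted p = 0.769) and Mlxipl, which encodes ChREBP, by 0.07 ± 0.14 (adjusted p = 0.759), both with a sign that turned in some refits.

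**Figure D4:**
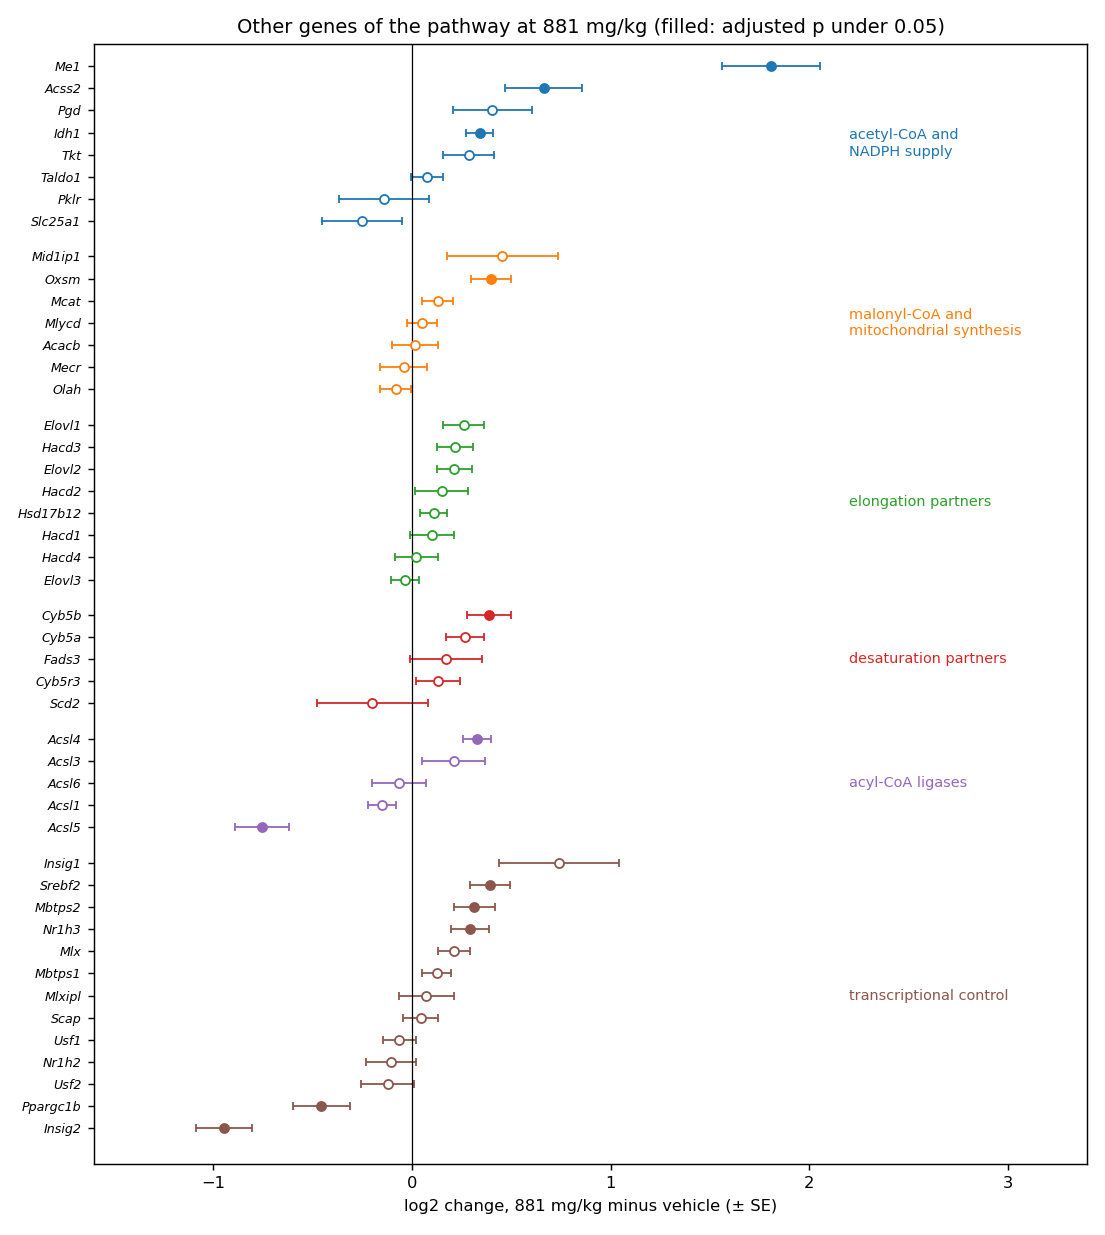
Log2 change at 881 mg/kg against vehicle with its standard error for the 46 other genes of the pathway, grouped by role; filled points have an adjusted p under 0.05. Me1 is the farthest to the right (1.81) and Insig2 the farthest to the left (-0.95), and most genes lie near 0.

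Short lists of other targets of the same regulators were read beside these. Of 4 measured sterol genes driven by SREBP, 2 rose at 881 mg/kg: Idi1 by 1.0 ± 0.24 (adjusted p = 0.00686) and Sqle by 0.83 ± 0.27 (adjusted p = 0.0338), both of cholesterol synthesis. Of 8 LXR targets, the sterol exporters Abcg5 and Abcg8 fell by 1.66 ± 0.29 (adjusted p = 0.000725) and 1.5 ± 0.26 (0.000644), and Pltp, phospholipid transfer protein, fell by 0.83 ± 0.14 (0.000596). Cyp7a1, the first enzyme of bile acid synthesis and an LXR target in rodents, rose by 1.18 ± 0.38 (adjusted p = 0.0364). Of 4 genes known to follow ChREBP, Txnip, a regulator of glucose uptake, fell by 1.19 ± 0.20 (adjusted p = 0.000537) and Khk, fructokinase, by 0.40 ± 0.12 (adjusted p = 0.0298). The others were not called, Pnpla3 with 0.33 (adjusted p = 0.215) and Arrdc4 with -0.31 (adjusted p = 0.11). Of these calls, those of Sqle, Cyp7a1 and Khk depended on single arrays. Sqle was not called without vehicle replicate 1 or 2 or 881 mg/kg replicate 1 or 3 (0.64 to 0.86, adjusted p = 0.0572 to 0.136), and Cyp7a1 not without vehicle replicate 1 or 2 or 881 mg/kg replicate 1 or 2 (0.87 to 1.26, adjusted p = 0.0576 to 0.169). Khk was -0.19 without 881 mg/kg replicate 2 (adjusted p = 0.26), and was not called without vehicle replicate 5 or 881 mg/kg replicate 1 (-0.35 and -0.39, adjusted p = 0.0636 and 0.0695). In a fit of the 881 mg/kg and vehicle arrays alone the adjusted p was 0.0506 for Sqle, 0.0852 for Cyp7a1 and 0.129 for Khk. The medians at 881 mg/kg were 0.72 for the sterol list, -0.30 for the LXR list and -0.36 for the ChREBP list, against 0.00 over all genes. When 881 mg/kg replicate 2 was left out, 2 of the sterol genes rose, 3 of the LXR targets fell and 0 rose, and 1 of the ChREBP genes fell. Of all genes 12.7% were called higher and 6.73% lower with that array, and 7.62% and 3.93% without it. Lists this short are given as descriptions.

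Arrays of the same dose differed from each other, and these deviations from the dose-group means hold no difference between doses. Over the 20 arrays 39 of 45 pairs of the 10 genes had a positive Pearson correlation of deviations, and 13 pairs, all positive, had an adjusted p under 0.05 (100000 permutations of arrays within dose groups, two-sided, Benjamini-Hochberg over the 45 pairs). All 13 also passed by Spearman's rho. Fasn went with Acaca (r = 0.83, p = 0.00039, adjusted p = 0.00585; rho = 0.85) and Acly (r = 0.78, p = 0.00054, adjusted p = 0.00607; rho = 0.77). Leaving out the 2 arrays farthest from the median, these became 0.79 and 0.77. Elovl6 went with Fads2 (r = 0.88, p = 0.0001, adjusted p = 0.0045; rho = 0.91), and 0.82 without the 2 farthest arrays.

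Scd went with Thrsp, a gene whose level moved the other way across doses. Their deviations correlated with r = 0.84 (p = 0.00115, adjusted p = 0.0103; rho = 0.81, adjusted p = 0.0162), r = 0.72 without the 2 farthest arrays, r = 0.74 without 881 mg/kg replicate 2 and r = 0.76 without the 881 mg/kg group. Scd also went with Srebf1 (r = 0.74, p = 0.0103, adjusted p = 0.0467; rho = 0.72; 0.58 without the 2 farthest arrays) and with Elovl6 (r = 0.66, p = 0.0135, adjusted p = 0.0467; rho = 0.65; 0.49 without them). Between Scd and Fasn the correlation of deviations was 0.22 (p = 0.383, adjusted p = 0.478; rho = 0.22, p = 0.401), and 0.23 without the 2 farthest arrays. So no negative relation between Scd and Fasn was detected among arrays of one dose, although at 440 and 881 mg/kg the mean of Scd was lower and that of Fasn higher than in vehicle livers. Thrsp and Srebf1 correlated with r = 0.87 (p = 0.00034, adjusted p = 0.00585; rho = 0.83; 0.77 without the 2 farthest arrays).

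The other 6 pairs that passed were Acly with Acaca (0.63), Elovl6 (0.73), Fads2 (0.68) and Srebf1 (0.68), Fasn with Elovl6 (0.56) and Thrsp with Elovl5 (0.73), each at an adjusted p of 0.0467. Of the 13, 12 kept an r over 0.5 without 881 mg/kg replicate 2, and Thrsp with Elovl5 had 0.50. As background, the deviations of Scd correlated with those of the 14216 other genes at a median r of -0.04, with 95% of genes between -0.58 and 0.56, and with the other 9 genes here at a median of 0.65. For Fasn these were 0.04, -0.52 to 0.59, and 0.52. Scd's median of 0.65 rested in part on the 881 mg/kg arrays. Its middle pair, Scd with Fads2, had 0.45 without replicate 2 and 0.33 without the 881 mg/kg group, again the middle of the 9. Both lie inside the range of the other genes over 20 arrays, which was not computed without those arrays. Genes that share an array share its RNA quality. What part the Gapdh difference plays in the pairs other than Scd and Fasn was not tested beyond leaving out replicate 2. The permutations treat arrays of a dose group as exchangeable. Over all genes, however, 15 of the 18 arrays with a same-numbered partner correlated best with an array of their own replicate number. What part the replicate number plays in the pairs other than Scd and Fasn was not tested.

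**Figure D5:**
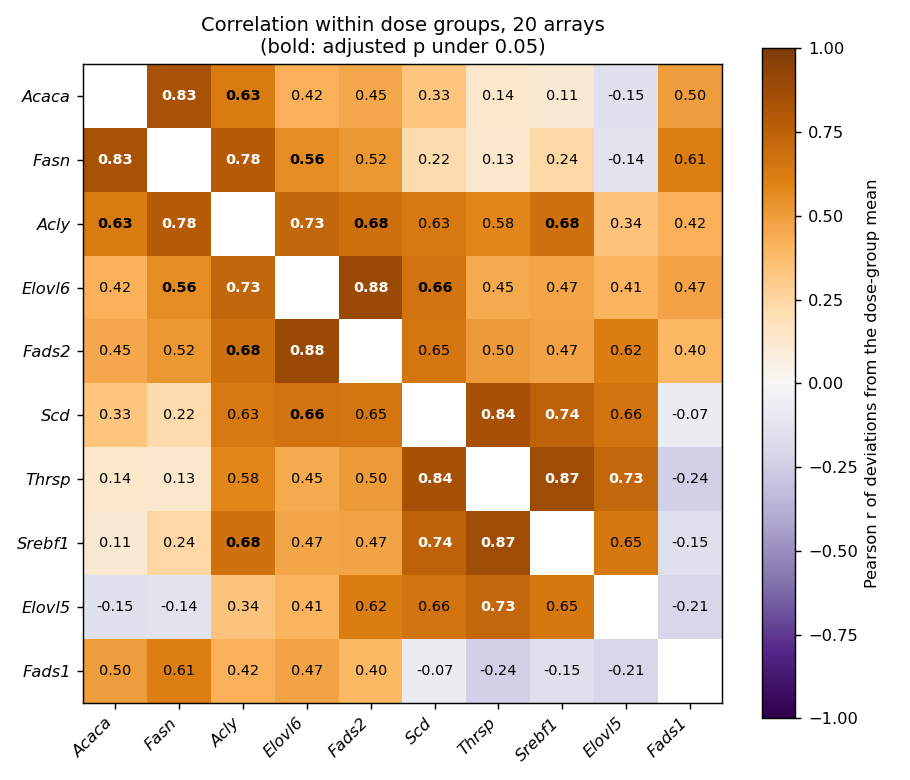
Pearson correlation between the genes' deviations from their dose-group means over 20 arrays; brown is positive, purple negative, and bold numbers have an adjusted p under 0.05. Acaca, Fasn and Acly correlate with each other at 0.63 to 0.83, and Scd, Thrsp and Srebf1 at 0.74 to 0.87. These are not separate blocks, as Acly has 0.68 with Srebf1 and 0.63 with Scd. Elovl6 with Fads2 is 0.88 and Scd with Fasn 0.22.

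Over all 20 arrays, dose differences included, the genes most like Scd among 10512 genes with a mean of at least 6 were Avpr1a, a vasopressin receptor (Pearson r = 0.93), Plin2, a lipid droplet coat protein (0.93), Amy1, an amylase (0.91), Ak4, a mitochondrial adenylate kinase (0.90), and Acsl5 (0.88). Plin2 averaged 11.44 at 881 mg/kg and 13.24 in vehicle livers, and Avpr1a 9.59 and 11.34. Most like Fasn were Acly (0.91), Lss, lanosterol synthase (0.89), Cstf3, a factor of RNA 3′-end formation (0.88), Mvd, mevalonate decarboxylase (0.87), and Acaca (0.87). Lss and Mvd, both enzymes of cholesterol synthesis, averaged 11.15 and 9.60 at 881 mg/kg and 10.10 and 8.42 in vehicle livers. No gene was on both lists of 5, which follows from choosing Scd and Fasn for their opposite directions and is no separate result. With 881 mg/kg replicate 2 left out the correlations were 0.86 to 0.93 for the 5 genes most like Scd and 0.85 to 0.92 for those most like Fasn. These correlations span the dose groups, which all share the same vehicle arrays, and are given as a measure of likeness with no p.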

How the data were processed

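Liver RNA of 20 rat samples was measured on Affymetrix arrays. The authors deposited 1 log2 expression value for each probe set and array, made with RMA per the submitters' processing notes, whose version is not given in the sources used here. RMA in general removes differences in total signal between arrays and compresses low signals. The log2 scale was taken from the values, which have near-equal medians on all arrays. No pair of arrays shared more than 0.0225% of values, so none was treated as a repeat. The number of arrays, 3 to 5 a group, limits the precision.

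Of 31099 probe sets, 57 controls were set aside. The platform's GEO annotation, possibly dated, named 1 gene for 20826 of the other 31042, several for 436 and none for 9780; 20758 matched a RefSeq gene by ID (GRCr8, names only). The probe set with the highest average stood for a gene, without a filter on signal. Doses were compared with vehicle in 1 model of 6 groups with limma 3.58.1 (lmFit, eBayes) in R 4.3.3, two-sided, with p-values adjusted by Benjamini-Hochberg over 14217 genes and a threshold of 0.05. All dose comparisons share the 5 vehicle arrays. The fit was first tested on simulated data with known changes. Correlations of deviations from dose-group means used 100000 permutations within groups. Python 3.11.15, pandas 2.3.3, NumPy 2.4.6, SciPy 1.17.1 and matplotlib 3.10.9 made the tables and figures.

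The genes and lists were chosen with earlier results of these data known. Beyond the 10 genes at every dose, the rule for names took, from each list, up to 4 genes called at 881 mg/kg with the largest change, a set named whatever its result (Srebf2, Insig1, Insig2, Scap, Mlxipl, Nr1h3, Scd2, Acacb, Me1, Acss2), and the 5 genes most like Scd and the 5 most like Fasn. Marker lists covered hepatocytes, adipocytes, stellate cells and fibroblasts, macrophages with Kupffer cells, endothelium, blood cells (0 of 4 measured rose and 2 fell at 881 mg/kg) and bile ducts (1 of 4 rose and 0 fell). Alternatives were another summary of a gene's probe sets, array centring, a filter on dim genes, another prior, array weights, a fit of 2 groups, a replicate block, the Gapdh difference as a covariate and leaving out each array.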

Additional observations from a re-analysis of the deposited data

Results flagged for a closer look

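In 3 of 42 genes tested, 1 vehicle array stood apart from the other 4 by Dixon's criterion, which chance meets in about 1 group of 20. Cyb5b was lowest on vehicle replicate 2, at 9.85 (log2) with the nearest other array at 10.21. Lss was also lowest on vehicle replicate 2, at 9.70 with the nearest at 10.09. Amy1 was highest on vehicle replicate 3, at 13.38 with the nearest at 13.31. None of the 10 fatty acid synthesis genes had such an array among the vehicle samples, and groups of 3 were not tested.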

How the results depend on the processing

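The count of 5 called genes among the 7 other than Scd, Fasn and Elovl6 at 881 mg/kg was 4 or 5 in all 16 refits, and the pathway counts at 440 and 881 mg/kg stayed within 1.5 times their value in all 16. Scd was lower in each refit at 110, 220, 440 and 881 mg/kg, and Fasn and Elovl6 higher in each at 881 mg/kg. Those directions chose the genes. Their arrays at these doses were also all apart from vehicle, so leaving out an array could not turn the sign. This is a description and no test. The small pathway counts moved. At 55 mg/kg the count of 0 became 2 with array weights, 1 with the Gapdh covariate and 1 in a fit of the 2 groups, and lay between 0 and 1 when single arrays were left out. At 110 mg/kg the count of 1 became 2 with a minimum mean of 5, 4 with array weights, 2 with the Gapdh covariate and 2 in a fit of the 2 groups, and lay between 1 and 2 without single arrays. At 220 mg/kg the count of 3 became 5 with array weights and lay between 0 and 3 without single arrays, being 0 without replicate 1 or replicate 3 of that dose and 1 without vehicle replicate 4. The cause was not tested.

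Small changes at 881 mg/kg that were not called also turned sign. Srebf1 was 0.32 with array weights and 0.32 with the Gapdh covariate, and -0.29 to 0.36 without single arrays. Mlxipl was -0.081 with array weights and -0.043 with the covariate, and -0.095 to 0.16 without single arrays. Scap was -0.039 with the mean of its probe sets and -0.0017 to 0.13 without single arrays, Acacb -0.064 to 0.14 and Fads2 -0.073 to 0.40.

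The labels do not say that replicate numbers pair the samples, so the main model did not treat them as pairs. In the values, arrays of the same number were more alike than others, which the main model leaves out. What the number stands for is not known. Deviations of same-numbered arrays of different groups correlated at a median r of 0.14 (-0.12 to 0.35, 45 pairs), against -0.05 for different numbers (120 pairs). Of the 18 arrays with a same-numbered partner, 15 correlated best with their own number, and the Gapdh difference was lower on replicate 1 than on replicate 2 in all 6 groups, both hints from the data. With the number as a replicate block the pathway count was 1 at 55 mg/kg and 2 at 110 mg/kg, Thrsp lost its calls at 110 mg/kg (0.64, adjusted p = 0.136) and 220 mg/kg (0.74, adjusted p = 0.0854), and Khk at 881 mg/kg (-0.35, adjusted p = 0.0957), while the 7 genes again gave 5 calls at 881 mg/kg.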
